A study of Homo sapiens with 6 samples.

Results

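The BAG proteins, the small heat shock proteins HSPB1 and HSPB8, and the heat shock factor HSF1 were followed in transfected cells of a human kidney line. The members were BAG1 to BAG6, HSPB1, HSPB8, HSF1 and HSF2, and every probe set that the platform annotation assigns to one of these symbols alone was taken. The annotation gives probe sets of its own to 9 of the 10 member genes among 19775 genes in all, which made 22 of 54613 probe sets that are not controls, namely 17 for the BAG family, 3 for HSPB1 and HSPB8 and 2 for HSF1. The expression of HSF2 was not analysed here, and the gene enters the count of promoter windows only. Cells had received a construct labelled hIMP1 Dmut, a construct labelled hIMP1 wt, or an empty vector (mock), with 2 arrays in each of the 3 groups. IGF2BP1 encodes IMP1, which binds RNA. The labels neither name the cell line nor say what Dmut stands for, and they give no time after transfection and no age of the culture. Nor do they say whether the 2 arrays of a group stand for different cultures, and the p-values reflect how far these particular arrays spread, possibly for technical reasons.

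HSF1 is the transcription factor that switches on chaperone genes when proteins misfold. It binds heat shock elements, which are inverted repeats of a short GAA unit. Most BAG proteins are co-chaperones that bind HSP70 through a BAG domain and promote the release of nucleotide and client. HSPB1, also called HSP27, and HSPB8, also called HSP22, are small heat shock proteins that hold unfolded clients without using ATP, and HSPB8 forms a complex with BAG3 that takes clients to autophagy. BAG3 and HSPB1 are textbook targets of HSF1.

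The promoters of BAG3, HSPB1 and HSPB8 are shown because they are the stretches in which a heat shock element would be looked for in the stress-inducible members. Each is the 250 bases before the gene's start in RefSeq, build GRCh38.p14, plus strand, written 5′ to 3′, at chr10:119651130-119651379 for BAG3, chr7:76302423-76302672 for HSPB1 and chr12:119178681-119178930 for HSPB8. Capitals mark a pair of facing units, GAANNTTC, and the pair TTCNNGAA was searched as well.
BAG3: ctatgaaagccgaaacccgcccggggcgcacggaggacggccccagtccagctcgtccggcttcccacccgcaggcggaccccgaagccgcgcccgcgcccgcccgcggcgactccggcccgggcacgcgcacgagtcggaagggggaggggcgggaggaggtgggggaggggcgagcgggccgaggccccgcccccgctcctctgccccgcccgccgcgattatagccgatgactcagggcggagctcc
HSPB1: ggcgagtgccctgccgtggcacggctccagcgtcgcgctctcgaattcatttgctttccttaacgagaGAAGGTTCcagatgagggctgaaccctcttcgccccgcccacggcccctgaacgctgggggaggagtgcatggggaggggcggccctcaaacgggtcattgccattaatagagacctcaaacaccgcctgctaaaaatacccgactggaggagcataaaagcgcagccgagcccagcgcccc
HSPB8: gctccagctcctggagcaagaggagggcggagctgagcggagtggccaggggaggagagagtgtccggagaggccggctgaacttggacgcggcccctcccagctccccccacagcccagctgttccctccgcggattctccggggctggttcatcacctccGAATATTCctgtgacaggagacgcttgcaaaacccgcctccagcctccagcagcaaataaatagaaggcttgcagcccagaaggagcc
Both pairs read the same on either strand, and a pair may overlap another where 3 units alternate. In windows of 300 bases, from 250 before to 50 after the start, 6.77% of 35116 RefSeq promoters held GAANNTTC, 7.74% held TTCNNGAA, 13.5% held either, and 0.49% held 3 alternating units. Of 11 member windows from 8 genes, 3 windows of 3 genes held a pair and 0 held 3 alternating units. HSPB1 had GAAGGTTC beginning 182 bases before the start. HSPB8 had GAATATTC beginning 88 bases before the start and GAAGTTTC beginning 4 bases after it, outside the stretch shown. BAG2 had GAACCTTC beginning 124 bases before the start. The BAG3 window held neither pair, which says only that these letters are not in this window. For comparison, the window of HSPA6, the strictly inducible HSP70 gene, held 2 GAANNTTC pairs and 1 TTCNNGAA pair, with 1 stretch of 3 alternating units. The 3 windows of DNAJB1, another heat-inducible chaperone gene, held at most 2 GAANNTTC pairs each, 0 TTCNNGAA pairs and 0 such stretches.

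Values are intensities on a linear scale. Median intensities per array lay between 26.7 and 33.7, and with so few arrays every value is imprecise. Of the markers with a probe set of their own, the filter on dim probe sets kept 7 of 9 of embryonic kidney and 4 of 5 of epithelium. It kept 12269 of 19775 genes in all, so these counts alone do not name the cell type. Fewer were kept of blood cells (2 of 5), striated muscle (2 of 5), fibroblasts (1 of 6) and liver (1 of 5), again of markers with a probe set of their own. Arrays carry a replicate number, 1 or 2, whose meaning the labels do not give. Arrays of the same number correlated at 0.970 to 0.980 over 27307 probe sets and arrays of the same group at 0.963 to 0.964. Arrays that shared neither correlated at 0.96 to 0.968, so those of the same group were no more alike than these. Changes are therefore given within each number beside the fit.

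Of the 22 member probe sets, 19 passed the filter, and each of the 9 genes kept at least 1. Levels of different probe sets cannot be ranked against each other, since each has its own probes. The brightest probe set of BAG6 (210208_x_at) ranged from 1346 to 1700 over the 6 arrays, and that of BAG3 from 499.7 to 1064. The probe set of HSPB1 ranged from 166 to 451, the kept one of HSPB8 from 46.9 to 172 and the brighter one of HSF1 from 72.5 to 145. The 3 dim probe sets, of BAG2 (230750_at), BAG6 (230513_at) and HSPB8 (233057_at), stayed at or below 35.3 on every array. HSPB8 233057_at had 24.9 and 24.5 with hIMP1 Dmut, 13.2 and 10.9 with hIMP1 wt and 16.1 and 10.9 with mock, and it was not tested.

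**Figure D1:**
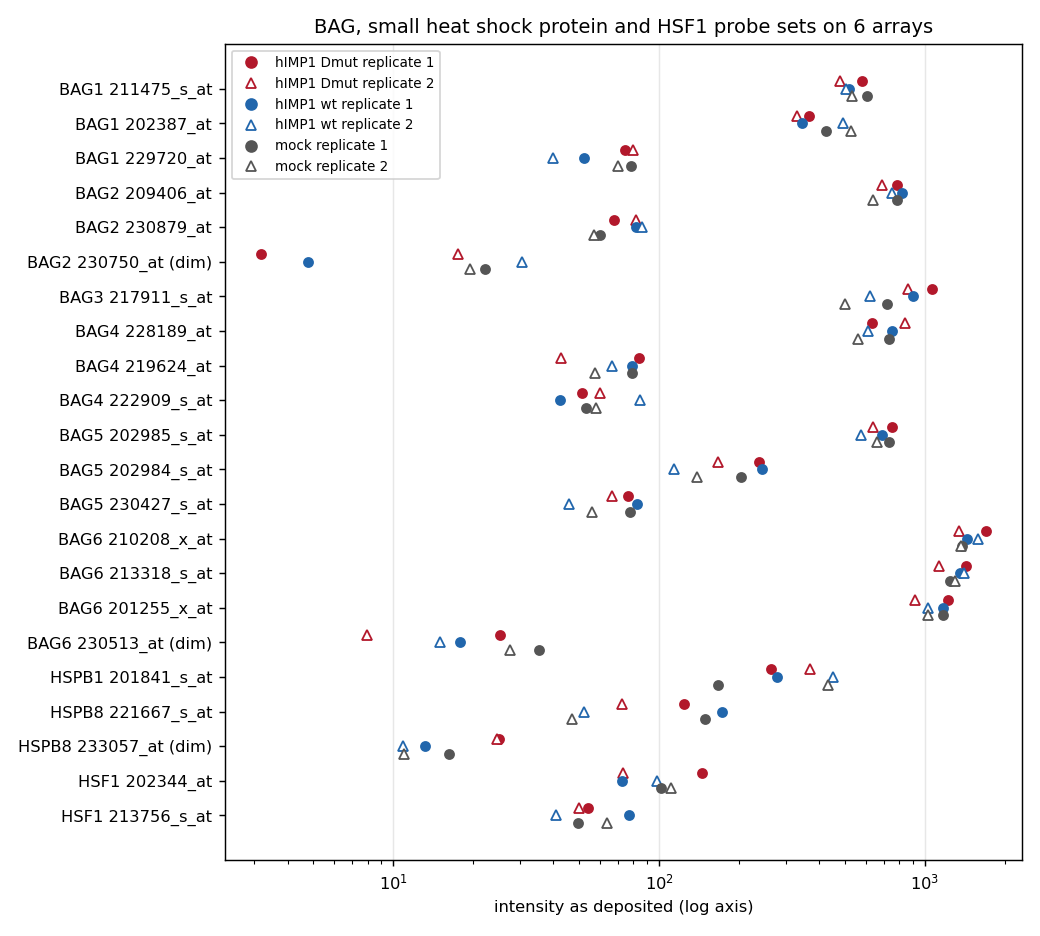
Deposited intensity (log axis) of the 22 probe sets of the BAG, small heat shock protein and HSF1 genes on each of the 6 arrays. Filled circles are arrays numbered 1 and open triangles arrays numbered 2, and the 3 probe sets marked dim did not pass the filter. Among kept probe sets HSPB8 and HSPB1 spread the most, with a highest array 3.67 and 2.72 times the lowest.

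BAG3, the stress-inducible member of its family, had the largest difference among the members for hIMP1 Dmut minus mock. Its intensity was 1064 and 867 with hIMP1 Dmut, 903.8 and 619 with hIMP1 wt, and 722 and 499.7 with mock, for replicates 1 and 2. Both hIMP1 Dmut arrays lay above both mock arrays, while hIMP1 wt overlapped each of the other groups. Here and below, groups this small can easily fall apart without overlap, and the share over all probe sets was not counted. The log2 change for hIMP1 Dmut minus mock was 0.67 ± 0.25 (SE), or 1.59-fold, with a 95% interval of 0.12 to 1.22 (limma, unadjusted p = 0.0217, adjusted p = 1). Taken by number, it was 0.55 for replicate 1 and 0.78 for replicate 2. That change was 0.41 without mock replicate 2 and 0.93 without mock replicate 1. For hIMP1 wt minus mock the log2 change of BAG3 was 0.31 ± 0.25, with 0.32 and 0.30 within the numbers. Without hIMP1 wt replicate 1 that change was 0.04, without mock replicate 2 it was 0.05, without mock replicate 1 it was 0.57, and without hIMP1 wt replicate 2 it was 0.58. For hIMP1 Dmut minus hIMP1 wt it was 0.36 ± 0.25, with 0.23 and 0.48 within the numbers, and it was 0.21 without hIMP1 Dmut replicate 1, 0.09 without hIMP1 wt replicate 2 and 0.63 without hIMP1 wt replicate 1. None of these changes passed the threshold of 0.05 on the adjusted p.

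Within both numbers BAG3 was highest with hIMP1 Dmut, between with hIMP1 wt and lowest with mock. Of the 19 kept member probe sets 1 showed this order (5.26%), and so did 3.3% of all kept probe sets, so the order alone does not set BAG3 apart. The heat-inducible chaperone genes HSPA6 and DNAJB1, outside the family, ran in the same order. They do not stand for the 23 measured heat-inducible chaperones and HSF1 target genes. Of these, 13 were higher and 10 lower for hIMP1 Dmut minus mock, and 16 higher and 7 lower for hIMP1 wt minus mock. For hIMP1 Dmut minus hIMP1 wt 9 were higher and 14 lower, with 4 higher within both numbers. HSPA6 had 1033 and 824 with hIMP1 Dmut, 645.9 and 453.7 with hIMP1 wt, and 28.6 and 3.02 with mock. DNAJB1, the HSP40 partner of HSP70, had 1043 and 884 with hIMP1 Dmut, 771 and 714 with hIMP1 wt, and 529.7 and 489 with mock. Both comparisons with mock use the same 2 mock arrays. The DNAJB1 groups did not overlap, and its log2 change was 0.90 ± 0.18 for hIMP1 Dmut minus mock and 0.54 ± 0.18 for hIMP1 wt minus mock (limma, adjusted p = 1 for both). In a bulk sample, more cells with the transcript and more transcript per cell cannot be told apart.

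**Figure D2:**
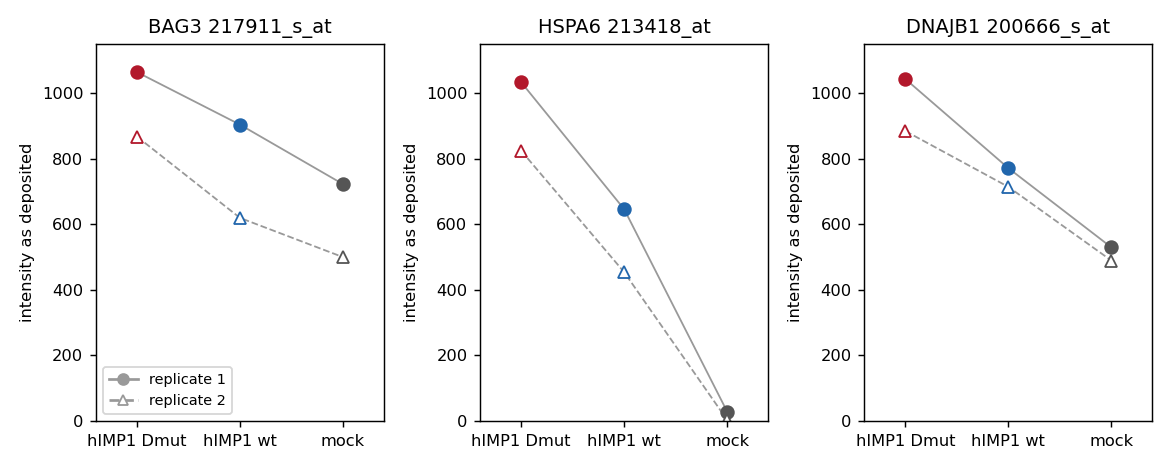
Deposited intensity of BAG3, HSPA6 and DNAJB1 on each array, with hIMP1 Dmut, hIMP1 wt and mock from left to right and the axis starting at 0. Lines join arrays of the same replicate number (circles and solid lines for 1, triangles and dashed lines for 2). On both lines each gene is highest with hIMP1 Dmut and lowest with mock, as BAG3 is at 1064 and 867 with hIMP1 Dmut and 722 and 499.7 with mock.

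BAG1, which carries a ubiquitin-like domain and links HSP70 to the proteasome, had 3 kept probe sets that differed in pattern. At 229720_at the intensity was 74.2 and 79.4 with hIMP1 Dmut, 52.2 and 39.8 with hIMP1 wt, and 78.4 and 69.8 with mock. Both hIMP1 wt arrays were thus below the other 4 arrays. The log2 change there was -0.60 ± 0.30 for hIMP1 wt minus mock and 0.65 ± 0.30 for hIMP1 Dmut minus hIMP1 wt (limma, unadjusted p = 0.0699 and 0.0533, adjusted p = 1 and 0.9999). At 202387_at it was 366 and 331 with hIMP1 Dmut, 345.5 and 492 with hIMP1 wt, and 424 and 525 with mock. The hIMP1 Dmut arrays lay below the mock arrays at that probe set (log2 change -0.43 ± 0.23, adjusted p = 1). The brightest probe set of BAG1, 211475_s_at, differed from mock by -0.11 ± 0.19 with hIMP1 Dmut and by -0.15 ± 0.19 with hIMP1 wt. Across the 6 arrays the log2 values of these 3 probe sets correlated at -0.33 to 0.38, so they do not give 1 pattern for the gene.

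BAG2, an inhibitor of the ubiquitin ligase CHIP, had 67.9 and 81.8 at probe set 230879_at with hIMP1 Dmut, 81.6 and 86.1 with hIMP1 wt, and 59.7 and 57.0 with mock. The mock arrays were the lowest 2 of the 6. The log2 change was 0.31 ± 0.28 for hIMP1 Dmut minus mock and 0.46 ± 0.28 for hIMP1 wt minus mock (limma, adjusted p = 1 for both). The brighter probe set of BAG2, 209406_at, gave 0.05 ± 0.19 and 0.14 ± 0.19 in the same comparisons, and its groups overlapped.

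BAG4, which restrains signalling from the death domains of TNF receptors, had changes of 0.18 ± 0.22, -0.14 ± 0.36 and 0.002 ± 0.36 for hIMP1 Dmut minus mock at its 3 probe sets. Those probe sets correlated at -0.38 to -0.25 with each other. BAG5, which has several BAG domains, was read by 3 probe sets that ran together (r between 0.86 and 0.97 over 6 arrays). Its log2 changes were -0.003 ± 0.19, 0.24 ± 0.35 and 0.10 ± 0.34 for hIMP1 Dmut minus mock, and -0.14 ± 0.19, -0.01 ± 0.35 and -0.08 ± 0.34 for hIMP1 wt minus mock. BAG6, a chaperone of tail-anchored and mislocalised membrane proteins, was bright and steady. Its 3 kept probe sets differed from mock by -0.05 to 0.14 on the log2 scale, and their highest array was 1.26 to 1.33 times their lowest. Both hIMP1 wt arrays lay above both mock arrays at BAG6 210208_x_at and 213318_s_at. At BAG1 211475_s_at and HSF1 202344_at they lay below, so the probe sets named elsewhere are not the only ones without overlap. No BAG4, BAG5 or BAG6 probe set passed the test in any comparison.

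HSPB1 had 262.8 and 368 with hIMP1 Dmut, 276.8 and 451 with hIMP1 wt, and 166 and 430.2 with mock. The groups overlapped, and the lowest array was mock replicate 1. The log2 change was 0.21 ± 0.40 for hIMP1 Dmut minus mock, with 0.63 for replicate 1 and -0.22 for replicate 2. It was 0.39 ± 0.40 for hIMP1 wt minus mock, with 0.71 and 0.07 within the numbers. HSPB8 221667_s_at had 124 and 72.5 with hIMP1 Dmut, 172 and 52.3 with hIMP1 wt, and 149 and 46.9 with mock. All groups overlapped, and the log2 changes were 0.15 ± 0.57 for hIMP1 Dmut minus mock and 0.16 ± 0.57 for hIMP1 wt minus mock (limma, adjusted p = 1). The intervals of those HSPB8 changes, -1.12 to 1.41 and -1.10 to 1.43, include more than a doubling either way. They are from the fit without the replicate number, so they also hold the spread between the numbers. In a fit with group and number the SE of both HSPB8 changes was 0.27 rather than 0.57. That of both HSPB1 changes was 0.20 rather than 0.40, so the intervals given are wide for that reason.

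HSF1 202344_at had 145 and 73.2 with hIMP1 Dmut, 72.5 and 97.8 with hIMP1 wt, and 101 and 111 with mock. The hIMP1 Dmut arrays held the highest value and the second lowest. The log2 change was -0.03 ± 0.34 for hIMP1 Dmut minus mock and -0.30 ± 0.34 for hIMP1 wt minus mock (limma, adjusted p = 1 for both). The dimmer HSF1 213756_s_at gave -0.10 ± 0.35 and 0.01 ± 0.35, and the 2 probe sets correlated at -0.24. The activity of HSF1 is set largely after translation, which these arrays do not read.

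Over the family, 0 of 19 kept probe sets passed the limma test in each of the 3 comparisons, against 0.00732% of all 27307 kept probe sets for hIMP1 wt minus mock, 0.00732% for hIMP1 Dmut minus mock and 0% for hIMP1 Dmut minus hIMP1 wt. At an unadjusted p under 0.05 there was 1, BAG3, for hIMP1 Dmut minus mock, against 1.42% of all. There were 0 for hIMP1 wt minus mock, against 1.03%, and 0 for hIMP1 Dmut minus hIMP1 wt, against 1.23%. For hIMP1 wt minus mock, 9 member probe sets were higher within both numbers (47.4%), against 23.8% of all, and 5 were lower within both (26.3%), against 27% of all. For hIMP1 Dmut minus mock, 3 were higher within both, against 24.2% of all, and 2 were lower, against 21.4%. For hIMP1 Dmut minus hIMP1 wt, 3 were higher within both, against 25.2% of all, and 3 were lower, against 19%. Probe sets of a gene share its transcripts, so these counts are not of independent items.

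With 1 probe set per gene, the brightest kept, the median log2 change of the 9 genes was 0.14 for hIMP1 wt minus mock, with 6 genes higher and 3 lower. The median over 12269 genes was -0.01. Without hIMP1 wt replicate 1 the members' median was -0.07, and without mock replicate 2 it was -0.11. For hIMP1 Dmut minus mock the members' median was 0.14, against -0.01 for all genes, again with 6 higher and 3 lower. It was 0.06 under median scaling, -0.05 without hIMP1 Dmut replicate 1 and -0.02 without mock replicate 2. For hIMP1 Dmut minus hIMP1 wt the members' median was 0.04, against 0.01 for all genes. It was -0.09 under median scaling, -0.02 with a gene's kept probe sets averaged, -0.10 without hIMP1 Dmut replicate 1 and 0.18 when the other hIMP1 Dmut array was left out.

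**Figure D3:**
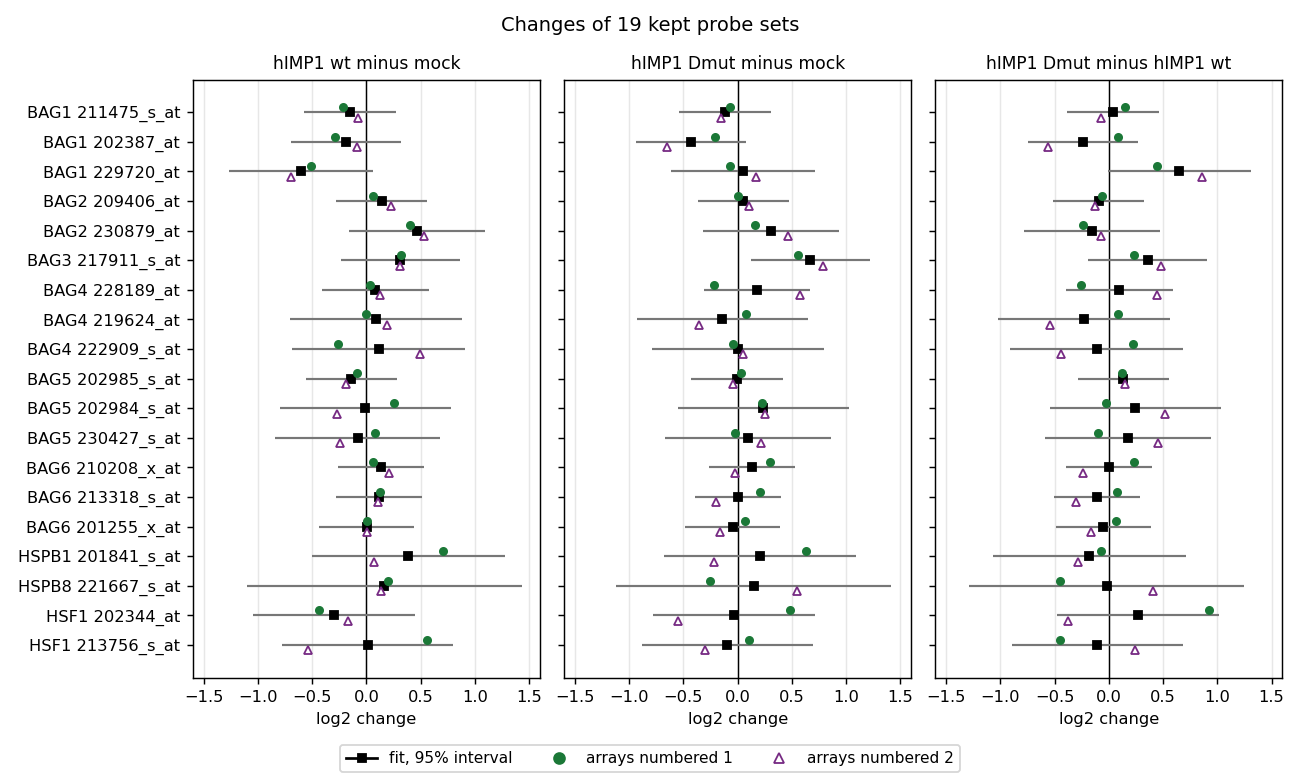
Log2 change of the 19 kept probe sets in the 3 comparisons, 1 panel each. Squares and lines are the limma estimate with its 95% interval, green circles the change within the arrays numbered 1 and open triangles that within the arrays numbered 2. Only BAG3 for hIMP1 Dmut minus mock has an interval that leaves out 0 (0.12 to 1.22).

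No member passed for a construct, whereas some passed for the replicate number, but the adjusted p depends on all probe sets. Over all kept probe sets 1558 passed for the number. In the fit with group and number, BAG3 changed by 0.67 ± 0.14 for hIMP1 Dmut minus mock (limma, unadjusted p = 0.000426). For the number it changed by -0.45 ± 0.12 (unadjusted p = 0.00187). Its call for the number alone thus does not mean a larger difference by number than by construct. For the arrays numbered 2 minus those numbered 1, in a fit with group and number, 4 of 19 member probe sets passed (limma, adjusted p under 0.05), against 5.71% of all kept probe sets. HSPB8 221667_s_at was lower in the arrays numbered 2, by a log2 difference of -1.26 ± 0.22 (adjusted p = 0.0116), with -0.71 in hIMP1 Dmut, -1.56 in hIMP1 wt and -1.50 in mock. HSPB1 was higher there by 0.83 ± 0.16 (adjusted p = 0.0169), with 0.47 in hIMP1 Dmut, 0.69 in hIMP1 wt and 1.33 in mock. These 2 small heat shock protein genes thus differed in opposite directions, and their log2 values correlated at -0.86 over the 6 arrays. BAG5 202984_s_at differed by -0.68 ± 0.17 (adjusted p = 0.0359) and BAG3 by -0.45 ± 0.12 (adjusted p = 0.042), both lower in the arrays numbered 2 of all 3 groups. With a variance prior without trend 0 member probe sets and 0 of all probe sets passed. The calls of BAG3 and BAG5 were also lost with median scaling (adjusted p = 0.386 for BAG3 and 0.0678 for BAG5) and with no filter on dim probe sets (adjusted p = 0.0765 for BAG3 and 0.0755 for BAG5). Of the 19 probe sets 15 were lower and 4 higher, with a median of -0.17 against -0.01 for all kept probe sets.

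That contrast rests on few arrays. The number of member calls was 1 without mock replicate 1, mock replicate 2 or hIMP1 wt replicate 1, 2 without hIMP1 wt replicate 2, and 6 without either hIMP1 Dmut array. The ratio of 3' to 5' signal of ACTB, a measure of RNA quality, was 1.57 to 1.67 in the arrays numbered 2 and 1.44 to 1.52 in those numbered 1, and its part in the result was not tested. For GAPDH that ratio was 1.03 to 1.17 over all arrays.

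**Figure D4:**
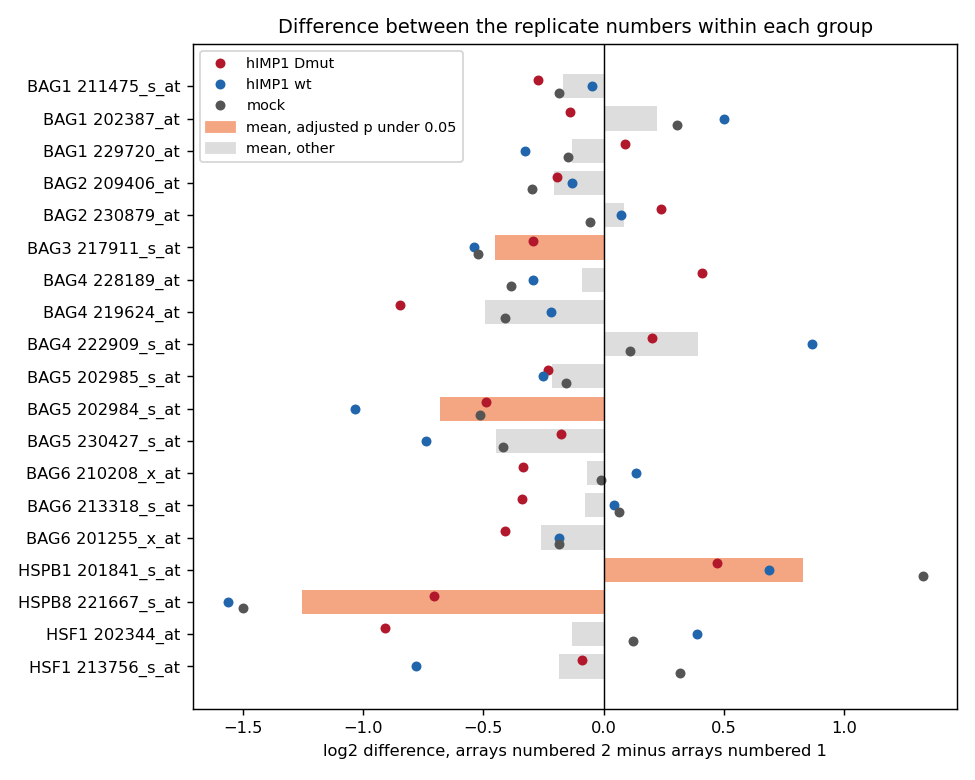
Log2 difference of the arrays numbered 2 minus those numbered 1 for the 19 kept probe sets. Bars are the mean over groups, orange where the limma adjusted p was under 0.05, and points are the difference within hIMP1 Dmut, hIMP1 wt and mock. HSPB1 is at 0.83 and HSPB8 at -1.26, with the points of all 3 groups on the same side of 0.

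Other genes of the pathway are given by lists. Of 30 heat-inducible chaperones and HSF1 target genes 23 were measured, and 1, HSPA6, passed upwards in each comparison with mock, with 0 passing for hIMP1 Dmut minus hIMP1 wt. The median log2 change of that list was 0.04 for hIMP1 Dmut minus mock and 0.09 for hIMP1 wt minus mock. For hIMP1 Dmut minus hIMP1 wt it was -0.06, and it ranged from -0.19 under median scaling to 0.06 without hIMP1 Dmut replicate 2. For hIMP1 Dmut minus mock that median took either sign, at -0.03 under median scaling, -0.02 without mock replicate 1, -0.08 without hIMP1 Dmut replicate 1 and 0.15 when the other hIMP1 Dmut array was left out. HSPA6 rose by 5.45 ± 0.44 with hIMP1 Dmut (adjusted p = 0.00292) and by 4.69 ± 0.44 with hIMP1 wt (adjusted p = 0.0119). Both calls were lost, with 0 probe sets passing on the whole array, with a variance prior without trend and without either hIMP1 Dmut array, and the call for hIMP1 wt was also lost with only the 4 arrays compared. Since HSPA6 was so dim with mock, the size of these changes depends on the offset. STIP1, which bridges HSP70 and HSP90, had 1264 ± 66.2 with hIMP1 Dmut and 1827 ± 204 with hIMP1 wt (SD, n = 2 each), a log2 change of -0.53 ± 0.17 that did not pass (limma, adjusted p = 0.9999). HSPA13, an HSP70 relative of the endoplasmic reticulum, differed from mock by 0.43 ± 0.21 with hIMP1 Dmut and 0.37 ± 0.21 with hIMP1 wt. SERPINH1, the collagen chaperone HSP47, differed by 0.47 ± 0.26 with hIMP1 wt. DEDD2 differed by 0.25 ± 0.19 for hIMP1 Dmut minus hIMP1 wt.

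Of 25 listed partners of BAG proteins 16 were measured and 0 passed in any comparison, with medians of 0.05 for hIMP1 Dmut minus mock and 0.06 for hIMP1 wt minus mock. With 1 array left out in turn, these medians lay between -0.03 and 0.10 and between -0.01 and 0.10. SYNPO2, a BAG3 partner at actin filaments, had 54.3 ± 3.97 with hIMP1 Dmut, 31.1 ± 12.9 with hIMP1 wt and 54.1 ± 0.158 with mock (SD, n = 2 each). LATS1, a Hippo pathway kinase, differed by 0.45 ± 0.37 for hIMP1 Dmut minus mock, though another of its probe sets had the other sign. SGTA, which works with BAG6 in sorting membrane proteins, differed by -0.39 ± 0.33 for hIMP1 Dmut minus mock and by -0.46 ± 0.33 for hIMP1 Dmut minus hIMP1 wt. PINK1, UBQLN4, GET4 and TNFRSF1A had changes of -0.28 to 0.21 in the comparisons in which they led the list. For PINK1 and UBQLN4 another probe set had the other sign.

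Of 12 other heat shock factors and regulators of HSF1 7 were measured and 0 passed. HSBP1, a binding protein of heat shock factors, differed by -0.36 ± 0.21 for hIMP1 Dmut minus hIMP1 wt and by 0.22 ± 0.21 for hIMP1 wt minus mock. EP300, an acetyltransferase that acts on HSF1, differed by 0.56 ± 0.39 for hIMP1 Dmut minus mock, with -0.04 and 1.16 within the numbers. DAXX differed by 0.33 ± 0.22 and the deacetylase gene SIRT1 by 0.25 ± 0.20 in that comparison, and another DAXX probe set had the other sign. HSBP1L1 differed by -0.38 ± 0.28 with hIMP1 Dmut and -0.40 ± 0.28 with hIMP1 wt, and HSP90AB1 by 0.15 ± 0.19 with hIMP1 wt. Of 9 other small heat shock protein genes 1 passed the filter, the lens crystallin gene CRYAA, at a low 34.7 ± 15.4 with hIMP1 Dmut, 30.1 ± 2.89 with hIMP1 wt and 21.0 ± 1.09 with mock (SD, n = 2 each). Its groups did not pass the test.

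The genes most like BAG3 over the 6 arrays, by Pearson's r of log2 values, were GADD45B (0.991), AP1G1 (0.989) and AGFG1 (0.987). For HSPB1 they were RNGTT (0.995), GRAMD2B (0.994) and CAMK1 (0.994). For HSF1 202344_at they were PMVK (0.989), TRMO (0.984) and ZNF585A (0.979). These hold for that probe set only, since the other HSF1 probe set correlated with it at -0.24. These are the highest values among all kept probe sets of other genes. They rest on 6 arrays that share groups and replicate numbers, so a high r alone does not link the genes. An r above 0.9 was reached by 401 of 23101 probe sets with BAG3, 554 of 23101 with HSPB1 and 54 of 23100 with HSF1.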

How the data were processed

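RNA from transfected human kidney cells was read on 6 oligonucleotide arrays of 1 colour. The values deposited by the authors are linear intensities, 1 per probe set, for 54675 probe sets. How they were scaled, and with what software, is not given in the sources used here. The mean with 2% trimmed from each end was 150.02 on every array, and no detection calls were used. The 62 control probe sets were left out, and 9.05, the lower quartile of all values together, was added before taking log2, with no further scaling. This addition shrinks the changes of dim probe sets. The brighter part of the probe sets, 27307 with a mean log2 value of 5.19 (the median) or more, was kept. Symbols came from the platform annotation, and probe sets with several symbols named no gene.

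The fit used limma 3.58.1 under R 4.3.3 (lmFit, then eBayes with trend) on all 6 arrays. Tests were two-sided at 0.05, after Benjamini-Hochberg adjustment across kept probe sets. There were 3 residual and 7.03 prior degrees of freedom. The contrast of replicate numbers came from a fit with group and number. The fit was tested on simulated data with planted changes larger than those of the members and no difference between replicate numbers. That test does not show how changes of the members' size fare. The members and lists were chosen with earlier results of these data known. Named genes were the members, the 4 genes of each list and comparison with the largest moderated statistic, HSPA6, DNAJB1, and the 3 genes most correlated with BAG3, HSPB1 and HSF1. Alternatives covered scaling, offset, filter, replicate block, the arrays fitted, the variance prior, averaging of probe sets, and leaving out each array. Those for the contrast of replicate numbers were chosen after seeing the data.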

Additional observations from a re-analysis of the deposited data

How the results depend on the processing

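The counts of member calls for the 3 group comparisons stayed at 0 under every alternative run, over 315 values per comparison, with a lowest adjusted p of 0.887. That value was BAG3 for hIMP1 Dmut minus mock with the replicate block, where its log2 change was 0.669 and its unadjusted p 0.000426. With the replicate block the calls over all probe sets were 2, 2 and 0, as in the fit without it, and no other call changed. The member probe sets under an unadjusted limma p of 0.05 were BAG3 and BAG1 202387_at for hIMP1 Dmut minus mock with the replicate block, BAG3 for hIMP1 wt minus mock, and BAG3 and BAG1 229720_at for hIMP1 Dmut minus hIMP1 wt, which makes 2, 1 and 2 against 1, 0 and 0 without it. The unadjusted p was 0.0293 for BAG1 202387_at, 0.046 for BAG3 in hIMP1 wt minus mock, and 0.0257 for BAG3 and 0.0392 for BAG1 229720_at in hIMP1 Dmut minus hIMP1 wt. Over all kept probe sets these counts were 1134, 705 and 870 with the block and 387, 281 and 337 without it. Same-numbered arrays deviated together (correlations of 0.2 to 0.464), but with 2 numbers of unstated meaning this is only a hint from the data. BAG3 kept its sign in all 17 alternatives of each comparison. The 2 calls over all probe sets for hIMP1 wt minus mock were 1 with an offset at the 10th percentile, 1 with a filter at the 75th percentile, 0 with only the 4 arrays compared, 0 with a prior without trend, and 0 to 3 with 1 array left out. Those for hIMP1 Dmut minus mock were 1 with that filter, 0 without trend, and 0 to 2 with 1 array left out. Both were 0 without either hIMP1 Dmut array.

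For the replicate numbers, the 4 member calls were 2 with median scaling, 2 with no filter, 0 without trend, and 1 to 6 with 1 array left out. The calls over all probe sets, 1558, were 558 with no filter, 0 without trend, and 291 to 5472 with 1 array left out. Median scaling moved the median of all probe sets for hIMP1 Dmut minus hIMP1 wt to -0.102, against 0.0201 as deposited. The dimmer kept member probe sets, among them HSPB8 221667_s_at and BAG5 230427_s_at, had no value with a filter at the 75th percentile, so the counts there rest on fewer probe sets. The list of other small heat shock proteins had no value with that filter or with an offset at the median. The cause of these differences was not tested.

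Signs turned only at changes that were not called in either fit. Under quantile scaling, the log2 change for hIMP1 wt minus mock was 0.00897 at BAG5 202984_s_at, -0.00832 at BAG6 201255_x_at. Under quantile scaling, the log2 change for hIMP1 Dmut minus mock was -0.0416 at BAG4 222909_s_at, 0.0049 at BAG5 202985_s_at. Under median scaling, the log2 change for hIMP1 wt minus mock was 0.0441 at BAG5 202984_s_at. Under median scaling, the log2 change for hIMP1 Dmut minus mock was -0.016 at BAG1 229720_at, -0.0202 at BAG2 209406_at, -0.0608 at BAG4 222909_s_at, -0.069 at BAG6 213318_s_at. Under median scaling, the log2 change for hIMP1 Dmut minus hIMP1 wt was -0.0893 at BAG1 211475_s_at, -0.0323 at BAG4 228189_at, -0.129 at BAG6 210208_x_at. Under median scaling, the log2 change for replicate 2 minus 1 was 0.0163 at BAG4 228189_at, 0.0385 at BAG6 210208_x_at, 0.0303 at BAG6 213318_s_at. Under cyclic loess scaling, the log2 change for hIMP1 wt minus mock was 0.00311 at BAG5 202984_s_at, -0.00659 at BAG6 201255_x_at. Under cyclic loess scaling, the log2 change for hIMP1 Dmut minus mock was -0.0433 at BAG4 222909_s_at, 0.00918 at BAG5 202985_s_at. With 1 array left out in turn, an arm is left with 1 array, which is assumed to vary like the others, and these log2 changes took both signs. BAG1 202387_at ranged from -0.441 to 0.0595 for hIMP1 wt minus mock, from -0.489 to 0.0109 for hIMP1 Dmut minus hIMP1 wt. BAG1 211475_s_at ranged from -0.0985 to 0.175 for hIMP1 Dmut minus hIMP1 wt, from -0.249 to 0.0245 for hIMP1 Dmut minus mock. BAG1 229720_at ranged from -0.0266 to 0.122 for hIMP1 Dmut minus mock. BAG2 209406_at ranged from -0.0986 to 0.2 for hIMP1 Dmut minus mock, from -0.00671 to 0.292 for hIMP1 wt minus mock, from -0.189 to 0.00549 for hIMP1 Dmut minus hIMP1 wt. BAG4 219624_at ranged from -0.564 to 0.283 for hIMP1 Dmut minus mock, from -0.115 to 0.295 for hIMP1 wt minus mock, from -0.654 to 0.193 for hIMP1 Dmut minus hIMP1 wt. BAG4 222909_s_at ranged from -0.098 to 0.102 for hIMP1 Dmut minus mock, from -0.319 to 0.546 for hIMP1 wt minus mock, from -0.544 to 0.321 for hIMP1 Dmut minus hIMP1 wt. BAG4 228189_at ranged from -0.34 to 0.0565 for replicate 2 minus 1, from -0.111 to 0.274 for hIMP1 wt minus mock, from -0.0258 to 0.381 for hIMP1 Dmut minus mock, from -0.107 to 0.299 for hIMP1 Dmut minus hIMP1 wt. BAG5 202984_s_at ranged from -0.527 to 0.508 for hIMP1 wt minus mock, from -0.0213 to 0.493 for hIMP1 Dmut minus mock, from -0.273 to 0.763 for hIMP1 Dmut minus hIMP1 wt. BAG5 202985_s_at ranged from -0.119 to 0.113 for hIMP1 Dmut minus mock. BAG5 230427_s_at ranged from -0.45 to 0.288 for hIMP1 wt minus mock, from -0.114 to 0.307 for hIMP1 Dmut minus mock, from -0.192 to 0.547 for hIMP1 Dmut minus hIMP1 wt. BAG6 201255_x_at ranged from -0.253 to 0.158 for hIMP1 Dmut minus mock, from -0.0912 to 0.0956 for hIMP1 wt minus mock, from -0.255 to 0.156 for hIMP1 Dmut minus hIMP1 wt. BAG6 210208_x_at ranged from -0.167 to 0.168 for hIMP1 Dmut minus hIMP1 wt, from -0.0314 to 0.303 for hIMP1 Dmut minus mock, from -0.172 to 0.0629 for replicate 2 minus 1. BAG6 213318_s_at ranged from -0.167 to 0.171 for hIMP1 Dmut minus mock, from -0.148 to 0.0525 for replicate 2 minus 1, from -0.28 to 0.0579 for hIMP1 Dmut minus hIMP1 wt. HSF1 202344_at ranged from -0.183 to 0.725 for hIMP1 Dmut minus hIMP1 wt, from -0.392 to 0.257 for replicate 2 minus 1, from -0.486 to 0.422 for hIMP1 Dmut minus mock. HSF1 213756_s_at ranged from -0.379 to 0.402 for hIMP1 wt minus mock, from -0.497 to 0.284 for hIMP1 Dmut minus hIMP1 wt, from -0.434 to 0.114 for replicate 2 minus 1, from -0.253 to 0.0623 for hIMP1 Dmut minus mock. HSPB1 201841_s_at ranged from -0.276 to 1.05 for hIMP1 wt minus mock, from -0.456 to 0.87 for hIMP1 Dmut minus mock, from -0.524 to 0.164 for hIMP1 Dmut minus hIMP1 wt. HSPB8 221667_s_at ranged from -0.617 to 0.947 for hIMP1 wt minus mock, from -0.8 to 0.763 for hIMP1 Dmut minus hIMP1 wt, from -0.603 to 0.895 for hIMP1 Dmut minus mock.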
